A study of Homo sapiens with 6 samples.

Results

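The genes examined were 10 genes of prostaglandin synthesis, breakdown and reception, namely PTGS1, PTGS2, PTGES, PTGES2, PTGES3, PTGIS, HPGD, PTGER2, PTGER4 and PTGFR, and they were compared between SHC4-overexpressing and control cells. They were taken by gene symbol from the 28181 Ensembl genes listed in the expression files, and all 10 were present. The RNA came from UE7T-9, a cell line of human bone marrow mesenchymal stem cells, which can form bone, cartilage and fat and make up part of the bone marrow niche. UE7T-9 SHC4 cells had been infected with a lentivirus carrying SHC4, an adaptor protein of the SHC family that links receptor tyrosine kinases to RAS, and were compared with UE7T-9 Cont cells in 3 RNA-seq libraries per group. The control libraries carry the label Nontarget and a wild-type genotype, while the study's methods describe the control cells as carrying a green fluorescent protein vector. The viral vector drives its insert from a CMV promoter, and infected cells were selected with puromycin. The series' description calls the SHC4 cells clones, and how many clones the libraries represent was not stated in the sources used here. The replicates are labelled as biological, without a statement of separate cultures, so the p-values measure the spread between these libraries.

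Prostaglandins are made from arachidonic acid, which phospholipases release from membranes. The cyclooxygenases PTGS1 and PTGS2 convert it to the unstable intermediate prostaglandin H2, which terminal synthases turn into prostaglandin E2, prostacyclin and other prostanoids, and HPGD inactivates prostaglandins by oxidising them. Prostaglandin E2 acts on neighbouring cells through G protein-coupled receptors, of which PTGER2 and PTGER4 raise cyclic AMP, and its release is a well known route by which mesenchymal stem cells restrain immune cells.

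Sequences of the pair of genes on which the description turns most are given first. PTGIS encodes prostacyclin synthase, a cytochrome P450-family enzyme, and the stretch of its coding sequence around the codon of the cysteine that binds haem is shown. It spans codons 426 to 455 of the GENCODE transcript PTGIS-201, coding bases 1276 to 1365 of 1500, and the capitals mark codon 441, which encodes that cysteine.
PTGIS coding stretch: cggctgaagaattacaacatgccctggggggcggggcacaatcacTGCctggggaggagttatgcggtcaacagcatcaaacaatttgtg
PTGS2 encodes the inducible cyclooxygenase, and its promoter is shown because its RNA differed severalfold among libraries of one group. The window is chr1:186680374-186680673 on the minus strand of GRCh38.p14, from 250 bases before to 50 bases after the start site, as listed by RefSeq. The capitals mark matches to a TATA box (TATAAA, gene strand), to the core of a cyclic AMP response element (CGTCA, both strands searched) and to a C/EBP motif (TTNCNNAA, both strands).
PTGS2 promoter: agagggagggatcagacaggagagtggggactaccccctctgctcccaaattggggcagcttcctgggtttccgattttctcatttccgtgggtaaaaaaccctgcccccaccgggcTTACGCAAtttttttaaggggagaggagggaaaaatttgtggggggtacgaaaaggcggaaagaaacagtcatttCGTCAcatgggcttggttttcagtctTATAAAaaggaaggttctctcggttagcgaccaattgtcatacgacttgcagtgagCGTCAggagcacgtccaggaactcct
The TATA box match began 32 bases upstream of the start site, a CGTCA match began 58 bases upstream, and the C/EBP match, TTACGCAA, began 133 bases upstream. A further CGTCA match began 24 bases downstream of the start site. TATAAA stood in 7.3% of the 35116 RefSeq promoter windows of this length, CGTCA in 24.6% and the C/EBP motif in 36.8%. PTGIS had no promoter window in the RefSeq list. Of the 13 promoter windows listed for the other 9 prostaglandin genes, that of PTGS2 alone held TATAAA, 4 held CGTCA and 3 held the C/EBP motif. An E-box (CACGTG, both strands, 7.3% of all windows) stood in 2 of the 13 windows and was not found in that of PTGS2. An NF-kappaB motif (GGGRNNYYCC, both strands, 11.3% of all windows) stood in 4 of the 13, and that of PTGS2 held no exact match. The PTGS2 window does hold gggactaccc, a near match that these letters do not allow and that was therefore not counted. These are matches of letters in one window and say nothing of the factors.

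Libraries held 18144993 to 27721397 reads assigned to genes, recovered from the deposited normalized counts. SHC4 stood at 56.5, 157 and 130 normalized counts in the 3 control libraries and at 134870, 119166 and 155006 in the 3 SHC4 libraries, as labelled. The summed normalized counts of the mesenchymal stem cell markers NT5E, THY1 and ENG were 27753 to 31176 in controls and 28127 to 30215 in SHC4 cells. The sum hides differences in opposite directions. Mean NT5E was 18701 in controls and 14252 in SHC4 cells, mean THY1 4323 and 8309, and mean ENG 6246 and 6769. The groups overlapped for each of these markers. Markers of blood, endothelial and epithelial cells summed to 231 to 440, 47.2 to 73.1 and 14.8 to 17.7 in controls, and to 279 to 358, 48.3 to 95.7 and 4.99 to 18.5 in SHC4 cells. Among the blood markers, HLA-DRA counted 72.8 to 262, CD14 52.7 to 88.3 and CD34 39.6 to 52.7 over the 6 libraries. ITGAM reached 42.5, HLA-DRB1 21.4 and CD79A 10.7, and PTPRC, which defines white blood cells, no more than 6.82. Control replicate 1 stood apart from its own group: across genes, its log2 values correlated at r = 0.967 and 0.962 with the other control libraries. With SHC4 replicates 1, 2 and 3 they correlated at r = 0.974, 0.969 and 0.968. Values without control replicate 1 are given beside the results that it moved most. In bulk RNA, fewer cells expressing a gene and less RNA per cell cannot be told apart.

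PTGIS was the prostaglandin gene with the largest difference between groups, with all 3 SHC4 libraries above all 3 controls. It counted 656, 169.5 and 136 normalized counts in control replicates 1, 2 and 3, and 1633, 3319.5 and 2281 in SHC4 replicates 1, 2 and 3. The mean was 320.4 ± 291 in controls and 2411 ± 851 in SHC4 cells (SD, n = 3 each), a ratio of means of 7.52, and the lowest SHC4 library was 2.49 times the highest control. Control replicate 1 held 4.83 times as much PTGIS RNA as control replicate 3, and without it the ratio of means was 15.8.

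The limma test gave PTGIS a log2 fold change of 3.22 (SE 0.52, 95% interval 2.05 to 4.38) and an adjusted p of 0.0787, above the threshold of 0.05, with an unadjusted p of 0.000138. All log2 fold changes are SHC4 over control, and those of limma are on the scale of log2(normalized count + 1), which understates differences of low genes. A gene was counted as called where the adjusted p lay below 0.05 and the log2 fold change exceeded 1 in size. DESeq2 on the recovered reads called PTGIS higher in SHC4 cells, with a log2 fold change of 2.91 (SE 0.75) and an adjusted p of 0.00719, whereas edgeR gave 2.91 with an adjusted p of 0.13. The exact two-sided permutation p was 0.1, the smallest that 3 libraries against 3 can give. Without control replicate 1, the control highest in PTGIS, limma gave 3.92 with an adjusted p of 0.000556, in a fit that called 3.06% of 23087 genes. DESeq2 without that library gave 3.98 with an adjusted p of 6.788e-39. That fit was added after the data were seen, and its share of called genes was not computed. Leaving out any other library kept the limma log2 fold change between 2.79 and 3.47, with adjusted p of 0.0708 to 0.44. The DESeq2 call was lost without control replicate 2 (log2 fold change 2.61, adjusted p 0.0929), SHC4 replicate 2 (2.61, adjusted p 0.21) or SHC4 replicate 3 (2.95, adjusted p 0.0916).

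**Figure D1:**
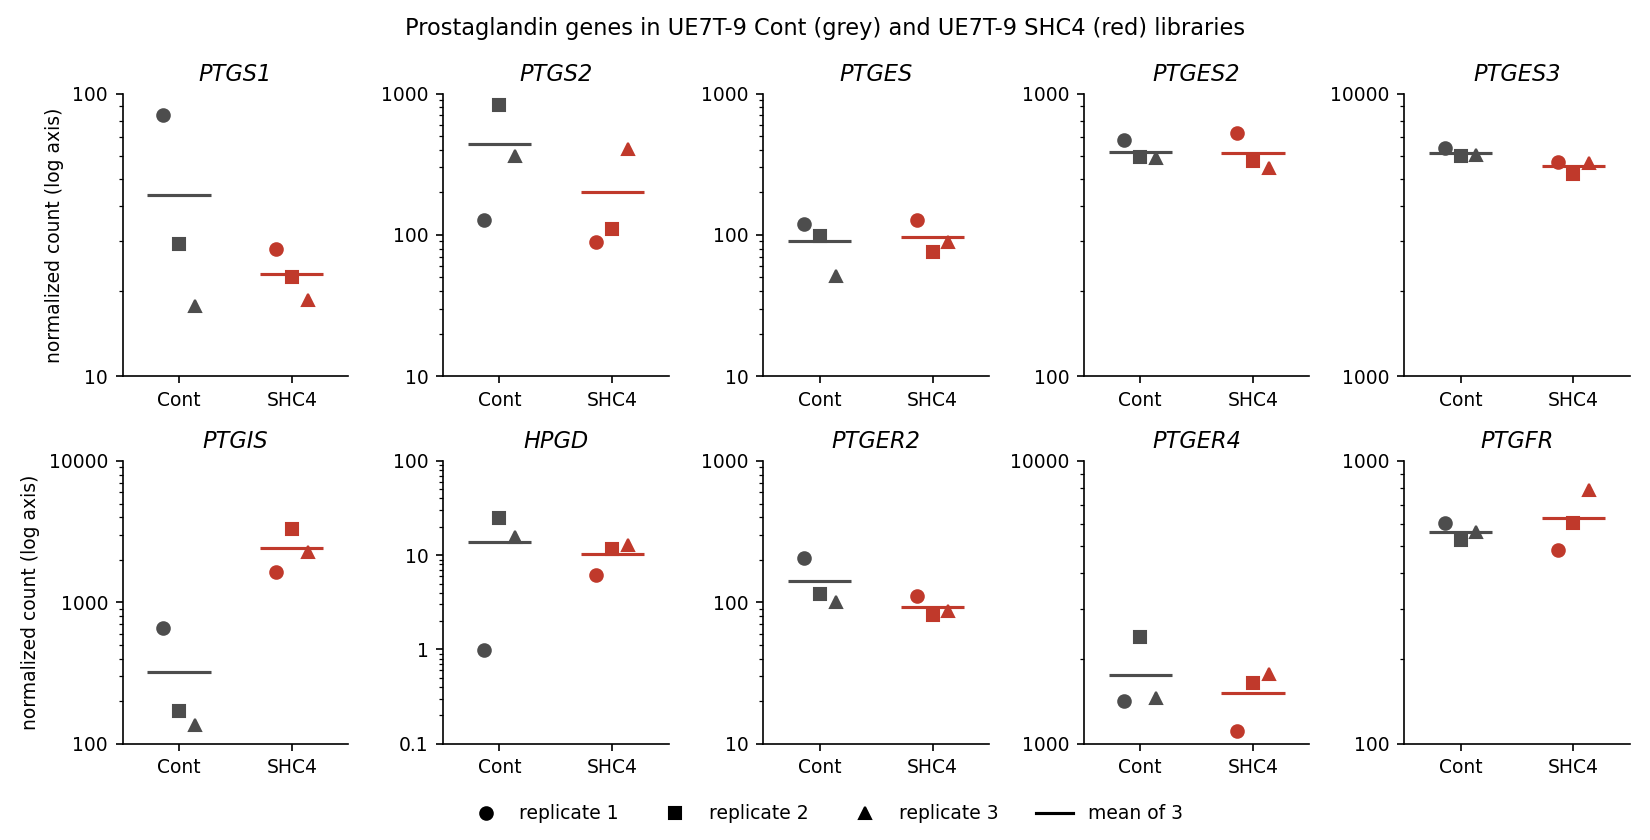
Normalized counts of the 10 prostaglandin genes in each of the 6 libraries, on log axes, with UE7T-9 Cont and UE7T-9 SHC4 side by side and a bar at each group mean. The PTGIS points of the SHC4 libraries, 1633 to 3319.5, lie above the control points, 136 to 656, and those of PTGES3 lie below.

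Of the 10 genes, limma called 0 in either direction against 0.0608% of the 23040 genes tested, DESeq2 called 1 (PTGIS) against 2.2% of 16153, and edgeR called 0 against 0.0631% of 15859. At an unadjusted p below 0.05, limma found 1 of the 10, PTGIS, where its share over all tested genes was 14.4%. The groups did not overlap for 2 of the 10 genes, PTGIS and PTGES3, a share near the 19.3% of all tested genes. The median log2 fold change of the 10 genes was -0.09, with 4 above 0 and 6 below, where 49.7% of all tested genes lay above 0, and that of all tested genes was -0.0040.

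**Figure D2:**
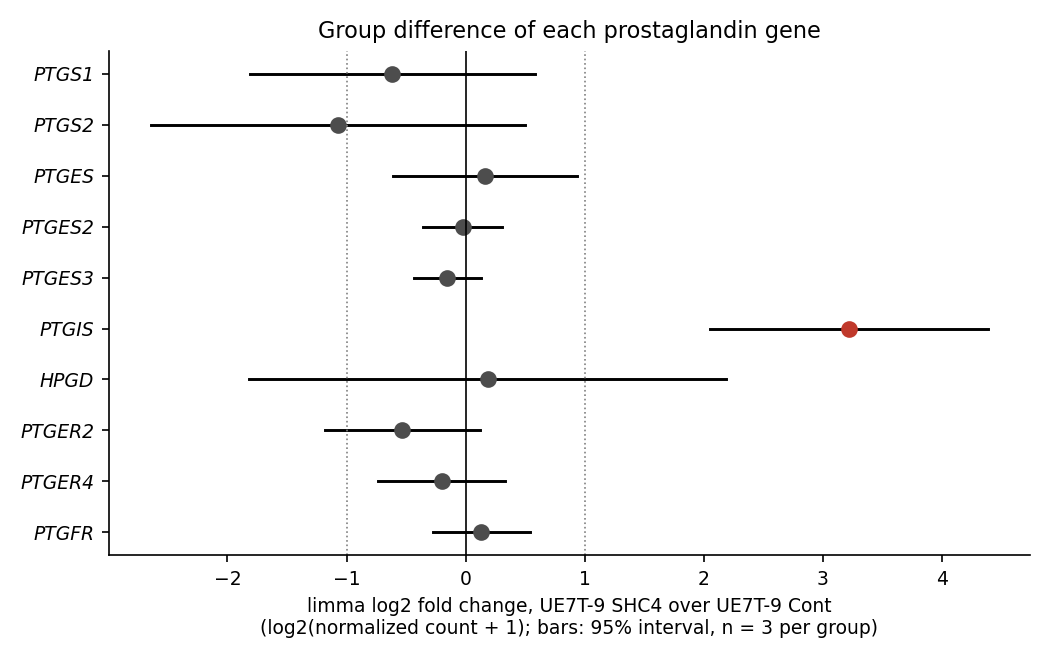
The limma log2 fold change of each prostaglandin gene, SHC4 over control, with bars for the 95% interval and dotted lines at a log2 fold change of 1 in either direction (3 libraries per group). PTGIS, at 3.22, has an interval of 2.05 to 4.38, and the intervals of the other 9 genes cross 0.

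PTGIS (ENSG00000124212) lies on the minus strand of chromosome 20, chr20:49503874-49568146 in GRCh38, and has 10 exons. Of its genomic neighbours within 500 kb, 17 were tested, with log2 fold changes of -0.76 to 0.94 and 7 above 0. DESeq2 gave an adjusted p for 13 of them and called 0, beside 2.2% of all genes it tested. Limma gave 1 of the 17 an unadjusted p below 0.05, beside 14.4% of all tested genes. Of the 25-base words in its transcripts, 10.49% also occurred in transcripts of other genes, but 0 of the 1476 words in its coding sequence did. The count of reads outside its coding sequence may be uncertain for this reason, to an extent that was not tested. THY1, a surface glycoprotein used to recognise mesenchymal stem cells, was likewise high in control replicate 1, at 7742 normalized counts against 2940 and 2286 in the other controls. In SHC4 cells THY1 stood at 7845, 9570 and 7512, and its part in the PTGIS values was not tested. THY1 was chosen for mention after its values were seen, and its limma adjusted p was 0.234.

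**Figure D3:**
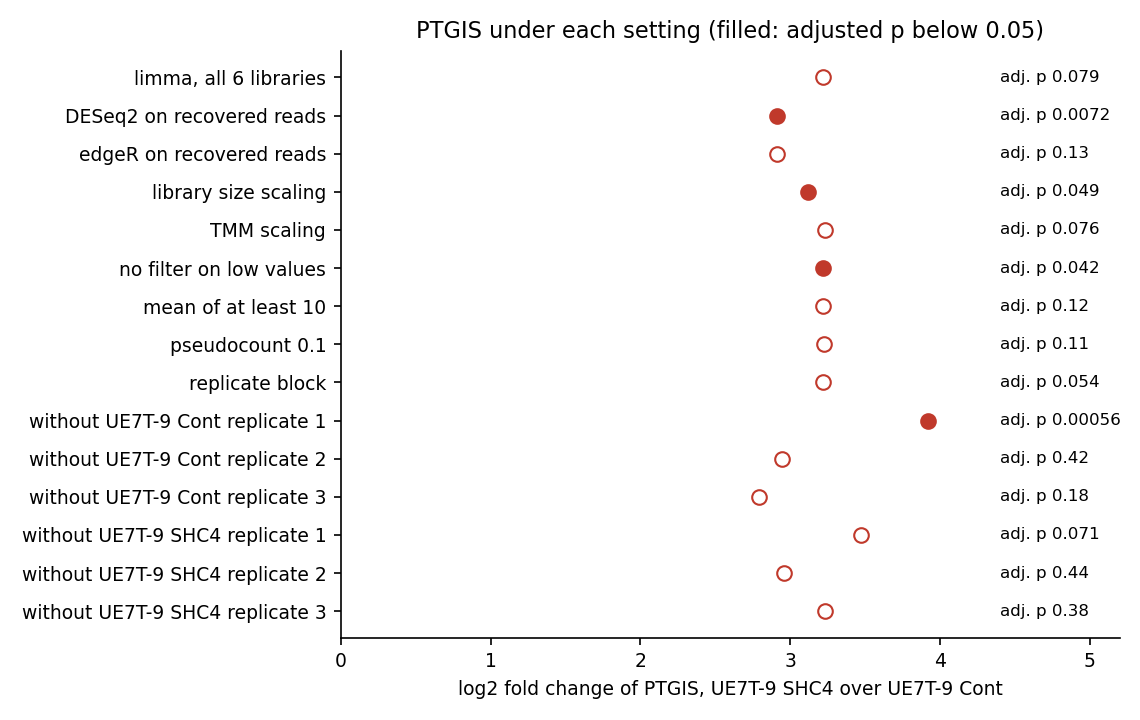
The log2 fold change of PTGIS, SHC4 over control, under limma as reported and under each alternative test, scaling, filter and omitted library. Every value lies above 0, between 2.79 and 3.92, and the settings in which PTGIS was called are marked.

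Both cyclooxygenases were spread widely among controls, and neither was called. PTGS2 (chr1:186671791-186680427, minus strand) counted 127, 829 and 361 in controls and 89.6, 109.9 and 408 in SHC4 cells. The groups overlapped, with control replicate 2 highest and SHC4 replicate 3 within the range of controls, and the means were 439 ± 357 and 202 ± 178 (SD, n = 3 each). The limma log2 fold change was -1.07 (SE 0.70, 95% interval -2.65 to 0.50) with an adjusted p of 0.516. It was -1.78 without control replicate 1 (limma adjusted p 0.108) and -0.43 without control replicate 2 (0.856), the extremes over the omission of each library. PTGS1 (chr9:122370530-122395703, plus strand), the cyclooxygenase that most tissues express steadily, counted 83.8, 29.4 and 17.7 in controls and 28.1, 22.5 and 18.6 in SHC4 cells. Control replicate 1 was the highest of the 6 libraries and control replicate 3 the lowest. The log2 fold change of -0.62 (SE 0.53, adjusted p 0.636, limma) became -0.0058 without control replicate 1. Per kilobase of exon, PTGS2 RNA was 30.9 and 22.4 times PTGS1 RNA in control replicates 2 and 3 and 24.0 times in SHC4 replicate 3, but 1.66, 3.50 and 5.37 times in control replicate 1 and SHC4 replicates 1 and 2.

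The genes whose pattern over the 6 libraries was most like that of PTGS2 were named by their distance from it. Among 12677 genes with a mean of at least 50 normalized counts, the 5 whose centred log2 values over the 6 libraries were nearest to those of PTGS2 were DUSP6, ITGA2, LIF-AS2, LIF and NFKBIZ, with root mean square differences of 0.42, 0.51, 0.54, 0.54 and 0.54. DUSP6, a phosphatase that switches off ERK, counted 716, 2072 and 1651 in controls and 438, 635 and 1451 in SHC4 cells. LIF, a cytokine of the interleukin-6 family, counted 1155, 3844 and 2477 in controls and 1112, 1187 and 1980 in SHC4 cells. LIF-AS2 lies antisense to LIF, and reads of the pair cannot be told apart where counting ignores strand, which the sources used here do not state. ITGA2, an integrin chain that binds collagen, and NFKBIZ, a regulator of NF-kappaB target genes, were likewise highest in control replicate 2. The 5 genes were chosen for this likeness, which is given as a description over 6 libraries.

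The libraries highest in PTGS2 in each group, control replicate 2 and SHC4 replicate 3, were also the highest of their group in FOS and EGR1, immediate early genes that were chosen for mention after their values were seen. FOS, a subunit of the AP-1 transcription factor, counted 1292, 4704 and 466 in controls and 893, 1642 and 10032 in SHC4 cells. EGR1, a zinc finger transcription factor induced by growth factors, counted 4369.97, 9752 and 3245 in controls and 2419, 2994 and 9258 in SHC4 cells. The part of these genes in the PTGS2 values was not tested. PACERR, an antisense RNA that starts near the PTGS2 start site, counted 0, 0 and 0.984 in controls and 10.5, 5.83 and 0 in SHC4 cells, so that its groups overlapped at 0.

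**Figure D4:**
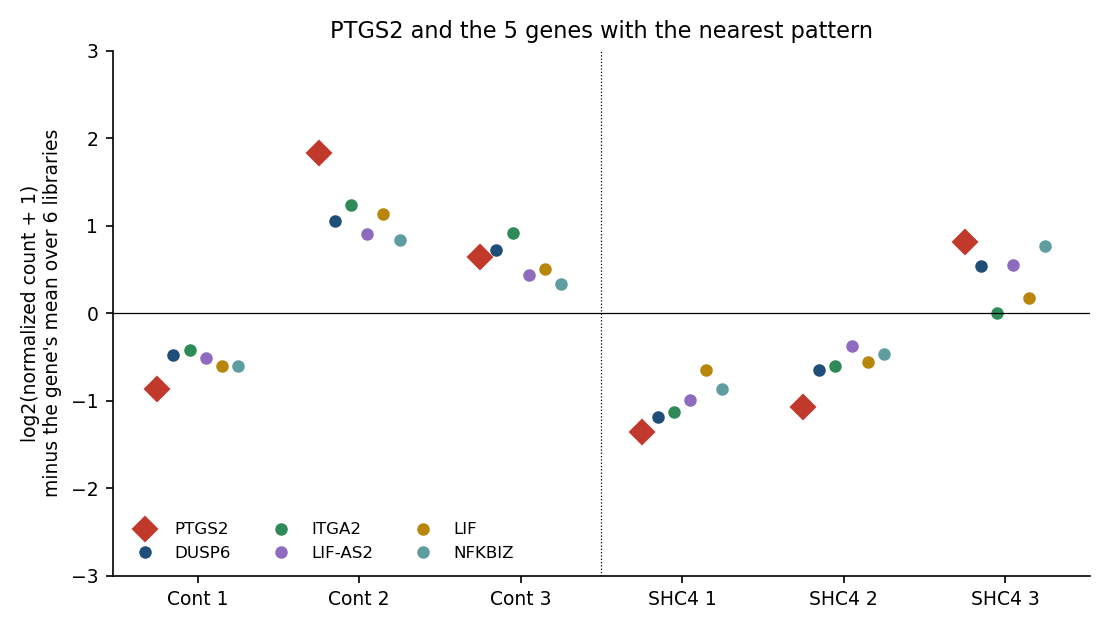
Log2(normalized count + 1) of PTGS2 and of the 5 genes nearest to it, each less its own mean over the 6 libraries. Control replicates 2 and 3 and SHC4 replicate 3 lie above each gene's mean, except that ITGA2 lies at its mean in the last, and the other 3 libraries lie below it.

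None of the terminal prostaglandin E synthases passed the test. PTGES (chr9:129738331-129753047, minus strand), the membrane synthase that acts with PTGS2, counted 119.9, 98.9 and 51.2 in controls and 127, 75.7 and 88.5 in SHC4 cells, and the groups overlapped (log2 fold change 0.16, SE 0.34, 95% interval -0.61 to 0.94, limma adjusted p 0.867). PTGES2 (chr9:128120693-128128462, minus strand), a further membrane synthase, counted 685, 596 and 589 against 723, 579 and 546, with a log2 fold change of -0.02 (SE 0.15, 95% interval -0.36 to 0.31, limma adjusted p 0.958). PTGES3 (chr12:56663341-56688408, minus strand), the cytosolic synthase also known as p23, a co-chaperone of HSP90, counted 6403, 5989.9 and 6076 in controls and 5741, 5205 and 5682 in SHC4 cells. All SHC4 libraries lay below all controls, but the log2 fold change was -0.15 (SE 0.12, 95% interval -0.43 to 0.13), the limma adjusted p was 0.616 and the exact permutation p was 0.1. Of the 25-base words of PTGES3, 15.08% also occurred in other genes' transcripts, 318 of them in the pseudogene PTGES3P1. The count of PTGES3 may be uncertain for this reason, to an extent that was not tested. PTGES3P1 counted 124, 94.2 and 85.6 in controls and 82.6, 48.3 and 74.5 in SHC4 cells, a small number beside PTGES3.

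Prostacyclin synthase and the prostaglandin E synthases draw on the same prostaglandin H2, and their RNA levels were set beside each other. Per kilobase of exon, the ratio of PTGIS to PTGES was 1.86, 0.583 and 0.902 in controls and 4.35, 14.9 and 8.76 in SHC4 cells, without overlap. The ratio of PTGIS to PTGS2, the enzyme that supplies its substrate, was 4.89, 0.193 and 0.355 in controls and 17.2, 28.5 and 5.29 in SHC4 cells. These ratios contain PTGIS and are given as a description, with no test.

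HPGD (chr4:174490177-174523154, minus strand), the dehydrogenase that begins prostaglandin breakdown, was near the lower limit of detection. It counted 0.975, 24.7 and 15.7 in controls, of which the first was 1 read, and 6.15, 11.7 and 12.8 in SHC4 cells. A count of 3 reads corresponds to 2.92 normalized counts in control replicate 1. The limma log2 fold change was 0.19 (SE 0.89, 95% interval -1.82 to 2.19, adjusted p 0.946), and it was -0.43 in DESeq2 and -0.95 in limma without control replicate 1. No difference was detectable at this depth, and differences of up to 2.19 on the log2 scale lay within the interval.

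Neither the prostaglandin E2 receptors nor the prostaglandin F receptor passed the test. PTGER4 (chr5:40679498-40693735, plus strand), which couples to the stimulatory G protein, counted 1414, 2380 and 1452 in controls and 1111, 1643 and 1763 in SHC4 cells, and the groups overlapped (log2 fold change -0.20, SE 0.24, 95% interval -0.73 to 0.33, limma adjusted p 0.743). PTGER2 (chr14:52314305-52328606, plus strand), which raises cyclic AMP as PTGER4 does, counted 206, 115 and 101 against 112, 80.7 and 87.3, and its groups overlapped. Its means were 141 ± 56.6 and 93.2 ± 16.3 (SD, n = 3 each), and its log2 fold change of -0.53 (SE 0.29, limma adjusted p 0.437) was -0.23 without control replicate 1. PTGFR (chr1:78303884-78539749, plus strand), the receptor for prostaglandin F2 alpha, which raises calcium through phospholipase C, counted 601, 525 and 559 in controls and 486, 603 and 792 in SHC4 cells. Its SHC4 range enclosed that of the controls, and its log2 fold change was 0.13 (SE 0.18, 95% interval -0.27 to 0.54, limma adjusted p 0.784). PTGIR, the receptor for prostacyclin, the product of the PTGIS enzyme, is no member of the 10 and was chosen for mention after its values were seen. It counted 272, 245 and 265 in controls and 249.6, 257 and 209.6 in SHC4 cells, with a log2 fold change of -0.13 (SE 0.15, limma adjusted p 0.75).

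Levels were compared between genes per kilobase of exon. PTGES3 was the most abundant in both groups, at 1811 ± 64.2 normalized counts per kilobase in controls and 1631 ± 86.4 in SHC4 cells (SD, n = 3 each). In controls PTGER4 (441.5), PTGES2 (205) and PTGFR (119) followed, and the ranges of PTGES3, PTGER4 and PTGES2 did not overlap those of their neighbours. From PTGFR through PTGS2 (83.3), PTGIS (57.4) and PTGER2 (56.9) to PTGES (47.5) each gene overlapped the one after it, PTGES and PTGS1 did not overlap, and PTGS1 (7.54) and HPGD (2.50) did. In SHC4 cells PTGIS stood second at 432 ± 152.5, overlapping PTGER4 (380.1), and PTGES (51.3), PTGS2 (38.4) and PTGER2 (37.7) overlapped one another in turn. PTGIS held rank 6 of 10 in controls and rank 2 in SHC4 cells. Without control replicate 1 its control mean was 27.4 per kilobase, below PTGER2 (43.8) and PTGES (39.6), and its rank was 8, an order computed after the data were seen.

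**Figure D5:**
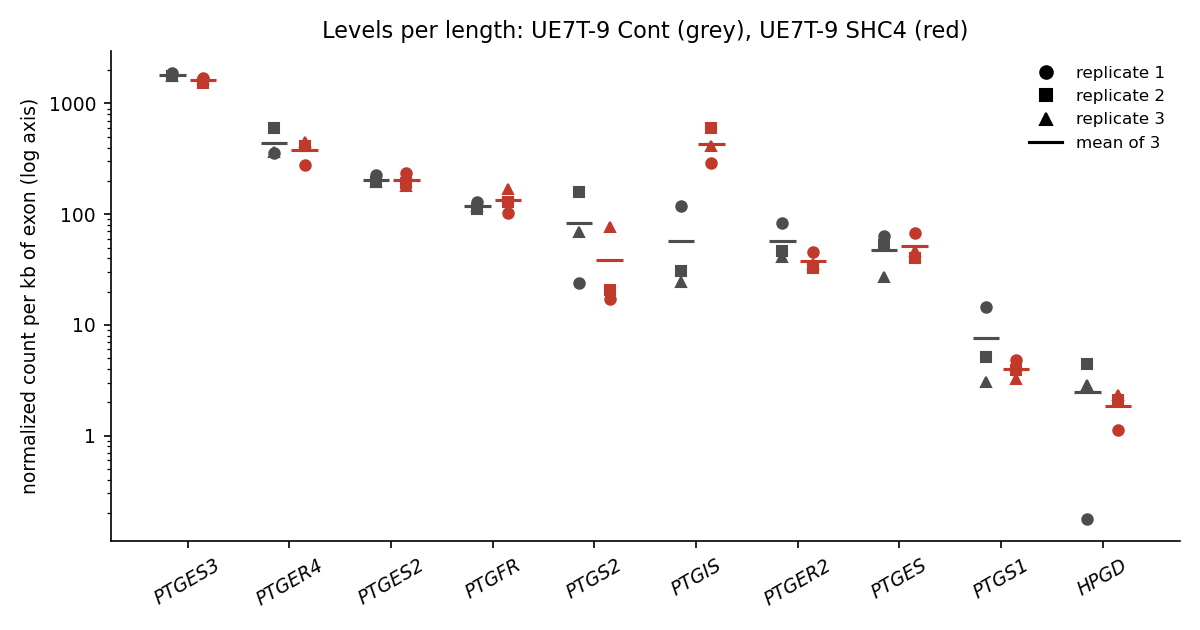
Normalized counts per kilobase of exon for the 10 prostaglandin genes in each library, on a log axis, ordered by their level in controls. PTGIS has a mean of 57.4 in controls and 432 in SHC4 cells, where it lies beside PTGER4.

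Genes that act around the 10 were described by 8 lists, which together held 85 genes, of which 82 were in the files and 75 were tested. Limma called 0 of the 75, beside 0.0608% of all tested genes, and edgeR 0 of the 65 it tested, beside 0.0631%. At such shares, lists of this size say little by holding no call. Limma gave 11 of the 75 an unadjusted p below 0.05 (6 higher and 5 lower in SHC4 cells), or 14.7%, a share near the 14.4% of all tested genes, and the smallest limma adjusted p was 0.152. The groups did not overlap for 17 of the 75, or 22.7%, beside 19.3% of all tested genes. The 11 and the 17 both include PTGDS, which had 0 reads in every control. It reached the mean of 1 needed for testing only through the SHC4 libraries, so its separation is no evidence of a difference. DESeq2 gave an adjusted p for 66 of the 75 and called 2, beside 2.2% of all genes it tested. PLA2G6, a calcium-independent phospholipase that frees fatty acids, rose in DESeq2 (log2 fold change 1.00, adjusted p 0.00686), from 345, 385 and 313 in controls to 472, 911 and 703 in SHC4 cells. PDE4D, a phosphodiesterase that breaks down cyclic AMP, fell in DESeq2 (log2 fold change -1.19, adjusted p 0.00492), from 262, 427 and 515 to 151, 149.8 and 227. Their limma adjusted p were 0.155 and 0.152.

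None of the 4 lists of enzymes and transporters held a gene called by limma, which called 0.0608% of all tested genes. For release of arachidonic acid, 4 of 12 tested genes had a log2 fold change above 0 and the median was -0.19; its most abundant gene, ANXA1, an inhibitor of phospholipase A2, counted 8184, 14399 and 18327 in controls and 8484, 8360.4 and 9324 in SHC4 cells (limma adjusted p 0.37). Among other prostanoid synthases 4 of 6, PTGDS among them, were above 0 with a median of 0.22. AKR1B1, an aldo-keto reductase that can make prostaglandin F2 alpha, had an adjusted p of 0.463 in limma. Transport and later breakdown had 2 of 4 above 0 and a median of 0.07, with ABCC4, an exporter of prostaglandins and cyclic nucleotides, the most abundant. Genes of the lipoxygenase branch, which makes leukotrienes from the same arachidonic acid, had 5 of 10 above 0 and a median of -0.23, and LTA4H was the most abundant.

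Lists on the receiving side were likewise without a gene called by limma, beside the same 0.0608% of all tested genes. Of the other prostanoid receptors and their partners, 1 of 6 had a log2 fold change above 0 and the median was -0.19, and the most abundant, PTGFRN, a partner protein of PTGFR, counted 5076, 5420.1 and 4213 in controls and 3907, 5446 and 4929 in SHC4 cells. Components of the cyclic AMP pathway, to which PDE4D belongs, had 8 of 13 above 0 with a median of 0.11, and GNAS, the stimulatory G protein subunit, led them in abundance. Cyclic AMP target genes had 8 of 10 above 0 and a median of 0.16, with CITED2 the most abundant. Regulators of PTGS2 RNA had 8 of 14 above 0 and a median of 0.07, with JUN, a subunit of AP-1, the most abundant.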

How the data were processed

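RNA-seq of UE7T-9 cells comprised 3 libraries with SHC4 and 3 control libraries (RNeasy extraction, NEBNext Ultra library kit). The submitters' processing notes name HISAT2 2.0.5, featureCounts 1.5.0-p3 and DESeq2; the genome build, annotation and strand setting are not given in the sources used here. The deposited signal values are counts that the authors divided by size factors, one file per library. They came out as whole reads for 100% of values (tolerance 0.01 read), which were recovered. Genes were matched to symbols for 27968 of 28181 identifiers, and places and exon lengths came from GENCODE 29 (GRCh38).

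Groups were compared with limma 3.58.1 (trend) on log2(normalized count + 1) for genes whose mean reached 1. P-values were adjusted over all tested genes (Benjamini-Hochberg), and calls needed an adjusted p under 0.05 together with a log2 difference of more than 1. DESeq2 1.42.0 and edgeR 4.0.16 on the recovered reads, other scalings, filters and a pseudocount of 0.1, a replicate block and omission of each library were alternatives; DESeq2 without each library and the order of control levels without control replicate 1 were added after the data were seen. The limma, DESeq2 and edgeR fits were tested on simulated data. The members and lists were chosen with earlier results of these data known. Named were the 10 genes, SHC4, genes of the lists called by limma or DESeq2, the most abundant gene of each list, the 5 genes nearest to PTGS2, and related pseudogenes and antisense genes; cell type markers were named as a check, and THY1, FOS, EGR1, PTGIR, PTGDS, ALOXE3, TBXAS1 and CEBPD after their values were seen. No column of another sample was used.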

Additional observations from a re-analysis of the deposited data

How the results depend on the processing

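PTGIS kept its direction in all 14 alternatives and was called in 4 of them: DESeq2 (2.91), scaling by library size (3.12), testing without a filter (3.22) and omission of control replicate 1. Leaving out each library gave 2.79 to 3.92. The number of the 10 prostaglandin genes called by limma was 0, and it was 1 under DESeq2, library size scaling and no filter, and 0 to 1 with a library left out (1 without control replicate 1). Over all genes limma called 14 (12 higher, 2 lower), DESeq2 355 (170 higher, 185 lower), library size scaling 24, TMM scaling 24, no filter 40, and omission of each library 2 to 706, the 706 without control replicate 1. Library size scaling moved the median of all genes to -0.10. The arachidonic acid release list had 1 call under DESeq2 and 0 to 1 with a library left out (PLA2G6 without SHC4 replicate 1), the cyclic AMP components 1 under DESeq2 and 0 to 1 (PDE4D without control replicate 1), and the regulators of PTGS2 RNA 0 to 1 (CEBPD without control replicate 1). The other 9 prostaglandin genes were called in 0 of 126 gene and setting combinations, and 5 of them changed sign in 11: HPGD was -0.43 in DESeq2, -0.41 in edgeR and -0.95 to 0.91 with a library left out, and omission gave -0.20 to 0.41 for PTGES, -0.14 to 0.058 for PTGES2, -0.33 to 0.043 for PTGER4 and -0.051 to 0.30 for PTGFR. The cause was not tested. Same-numbered libraries had deviations correlated at 0.148, 0.013 and -0.0070 for numbers 1, 2 and 3, and differently numbered libraries at -0.108 to 0.0992. The value for number 1 was the largest of all pairs, and whether those libraries shared a batch was not tested. The numbers were not taken to pair the libraries. A replicate block called 39 of all genes and 0 of the 10, with PTGIS at an adjusted p of 0.0538 (limma). With 3 libraries per group the depth and spread leave wide intervals, above all for HPGD and PTGS2.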

Other observations

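The following 4 genes of the pathway lists were chosen for mention after their values were seen. PTGDS, a prostaglandin D synthase, had 0 reads in all 3 control libraries and 3.52, 0.832 and 2.33 normalized counts in the SHC4 libraries, which correspond to 4, 1 and 2 reads. It reached the mean of 1 needed for testing only through the SHC4 libraries. ALOXE3, a lipoxygenase of the epidermis, counted 10.7, 25.9 and 17.7 in controls and 7.03, 3.33 and 2.33 in SHC4 cells, without overlap (limma log2 fold change -1.89, SE 0.55, adjusted p 0.198). The ALOXE3 values of the SHC4 libraries correspond to 8, 4 and 2 reads, near the lower limit of detection. A count of 3 reads corresponds to 3.49 normalized counts in SHC4 replicate 3. TBXAS1, the synthase of thromboxane A2 and like PTGIS a P450-family enzyme, counted 39.0, 45.9 and 47.2 in controls and 23.7, 31.6 and 32.6 in SHC4 cells, again without overlap. Its limma log2 fold change was -0.58 (SE 0.30, adjusted p 0.414), and 19.3% of all tested genes were without overlap. CEBPD, a C/EBP transcription factor on the list of regulators of PTGS2 RNA, counted 1513, 992 and 403 in controls and 1552, 1749.7 and 2002 in SHC4 cells, with a limma log2 fold change of 1.05 (SE 0.39) and an adjusted p of 0.278.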
